A study of Mus musculus with 6 samples.

Results

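Tissue macrophages were followed through 10 genes: C1qa, C1qb and C1qc, which encode the chains of complement C1q, and the macrophage markers Adgre1, Cd68, Mrc1, Fcgr1, Lyz2, Cd14 and Ptprc. They were taken by gene symbol from the 24346 symbols measured, all 10 were present, and all 10 passed the filter of a mean of at least 1 FPKM that 14766 genes passed. FPKM relates fragments to transcript length and to library size, so levels can be compared between genes. The tissue was the nasomaxillary complex, the bone, cartilage and soft tissue of the nose and upper jaw, of mouse embryos at E17.5, untreated. The 3 control libraries carried floxed Pth1r without Cre (Pth1r f/f), and the 3 mutant libraries carried the same floxed gene with Wnt1-Cre (Wnt1-Cre:Pth1r f/f). Pth1r encodes a receptor shared by parathyroid hormone and its related peptide. Wnt1-Cre recombines floxed genes in neural crest cells and their descendants, which form most of the facial skeleton. Macrophages descend from yolk sac and blood-forming precursors and not from neural crest. No control carries the Cre, so Pth1r loss and the transgene itself cannot be told apart. Nothing in the labels ties a library to its own embryo or litter, and the p-values then reflect only the spread among these samples, which may be technical.

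Resident macrophages settle in embryonic tissues, clear dying cells and take up matrix debris, and in bone they share precursors with osteoclasts. C1q is the recognition molecule of the classical complement pathway: its chains join into a bundle of collagen-like stalks with globular heads that bind antibody complexes and dying cells. Unlike most complement proteins, which come from the liver, C1q is made mainly by macrophages. In bulk tissue, a change in the number of macrophages and a change in RNA per macrophage cannot be told apart.

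The 6 libraries held an estimated 9520000 to 15700000 fragments each, mutant replicate 3 the fewest, as judged from the spacing of low values. Pth1r itself stood at 75.2, 55.2 and 73.5 FPKM in the controls and at 77.3, 78.4 and 69.7 FPKM in the mutants. Which exons are floxed is not given in the labels, and the tissue holds cells outside the neural crest, so this level does not check the genotypes. By Xist and 4 Y-linked genes, 4 libraries were female, namely all controls and mutant replicate 1, and the other mutant libraries were male. Markers of skeletal muscle summed to 391 to 646 FPKM in control and to 782, 1469 and 584 FPKM in mutant replicates 1 to 3. Mutant replicate 2 stood apart. All 10 genes of that list had log2 changes above 0 in mutant (median 0.78), and 0 were called. Tnni1 and Myod1 had control means of 28.4 ± 2.98 and 2.43 ± 0.701 FPKM (SD, n = 3 each). Their mutant means were 58.7 ± 23.6 and 6.43 ± 3.02 FPKM. In all, limma called 39 of 14766 genes at an adjusted p under 0.05, namely 9 higher (0.061%) and 30 lower (0.203%) in mutant.

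The genes C1qa, C1qc and C1qb lie side by side on the minus strand of chromosome 4 (GRCm38, 136880129 to 136898803), within 18675 bp. RefSeq promoter sequences (GRCm38.p6) were held for 7 of the 10 genes, and for C1qa, Adgre1 and Cd14 none was used here. The sequences shown are the 250 bases before the RefSeq start of both C1q genes with a promoter held and of Mrc1 and Fcgr1. Mrc1 and Fcgr1 were the genes whose mutant values all lay above the control values. Each reads 5′ to 3′ along the gene's strand. Capitals mark GAGGAA, the core of sites bound by PU.1, the transcription factor encoded by Spi1 that macrophages require, or its reverse complement TTCCTC. C1qb is from chr4:136886201-136886450, minus strand, C1qc from chr4:136892915-136893164, minus strand, Mrc1 from chr2:14229164-14229413, plus strand, and Fcgr1 from chr3:96293970-96294219, minus strand.
C1qb: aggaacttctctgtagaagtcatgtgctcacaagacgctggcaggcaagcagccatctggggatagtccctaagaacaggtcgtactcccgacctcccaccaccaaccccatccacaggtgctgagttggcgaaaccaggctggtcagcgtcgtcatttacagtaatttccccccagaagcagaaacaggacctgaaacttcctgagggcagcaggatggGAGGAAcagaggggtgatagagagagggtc
C1qc: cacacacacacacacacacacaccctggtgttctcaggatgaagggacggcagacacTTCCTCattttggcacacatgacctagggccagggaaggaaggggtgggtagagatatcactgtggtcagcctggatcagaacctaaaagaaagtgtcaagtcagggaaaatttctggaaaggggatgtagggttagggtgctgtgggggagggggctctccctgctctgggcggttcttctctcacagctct
Mrc1: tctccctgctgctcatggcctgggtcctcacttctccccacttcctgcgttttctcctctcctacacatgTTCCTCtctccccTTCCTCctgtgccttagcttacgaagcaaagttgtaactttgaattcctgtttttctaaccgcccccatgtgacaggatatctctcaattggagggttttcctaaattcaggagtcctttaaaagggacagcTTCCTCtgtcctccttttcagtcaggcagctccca
Fcgr1: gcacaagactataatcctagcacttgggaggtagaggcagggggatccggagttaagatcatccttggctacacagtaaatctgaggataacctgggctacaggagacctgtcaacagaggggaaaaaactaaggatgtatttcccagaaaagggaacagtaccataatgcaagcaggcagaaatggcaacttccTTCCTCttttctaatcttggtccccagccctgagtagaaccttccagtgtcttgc
The core was found on either strand in 6 of the 7 genes with a promoter in the table, over 300 bases that run from 250 before the start to 50 after it. Lyz2 was the exception, and 28.3% of all 32851 promoters of that length held it. The count is over genes and the share over promoters. Ptprc had 2 promoters, and that of start 2 held neither GAGGAA nor TATAAA. In C1qb the match began at position -30 and in C1qc at -193, where -1 is the base before the RefSeq start. The GENCODE annotation used for gene positions has C1qc reach 136893065 and Mrc1 begin at 14229392, each inside the stretch shown. It has C1qb reach only 136886187, short of the stretch shown. The match positions given for C1qb, C1qc and Mrc1 thus hold for the RefSeq starts only. Mrc1 held 3 matches, at -180, -167 and -35, and Fcgr1 held 1, at -55. TATAAA was found in 1 of the 7 genes, Ptprc, against 13.6% of all promoters, and CACGTG in 0 of the 7, against 7.15%, with both strands searched. A match is only a run of letters and does not show binding.

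None of the 10 macrophage genes passed the limma test, and each had a higher mean in mutant than in control libraries. The ratio of the mutant to the control mean ran from 1.04 for Cd68 to 1.44 for Fcgr1. Over all genes 0.264% were called in either direction. At an unadjusted limma p under 0.05, 1 of the 10, Mrc1, was higher, against 5.35% of all tested genes. The count of called macrophage genes was 0 under each of the 19 alternatives as well, with the lowest adjusted p at 0.26, for Mrc1 with library weights. The 10 log2 changes, all above 0, ran from 0.076 to 0.30 on the log2(FPKM + 1) scale with a median of 0.12. Of all tested genes 49.2% had changes above 0, and their median was -0.00197. The 10 genes share cells of origin and are not independent of each other, so the count of positive changes is a description. In 2 of the 10, Mrc1 and Fcgr1, every mutant value was above every control value, against 7.85% of all tested genes that were separated in this direction and 17% in either direction.

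**Figure D1:**
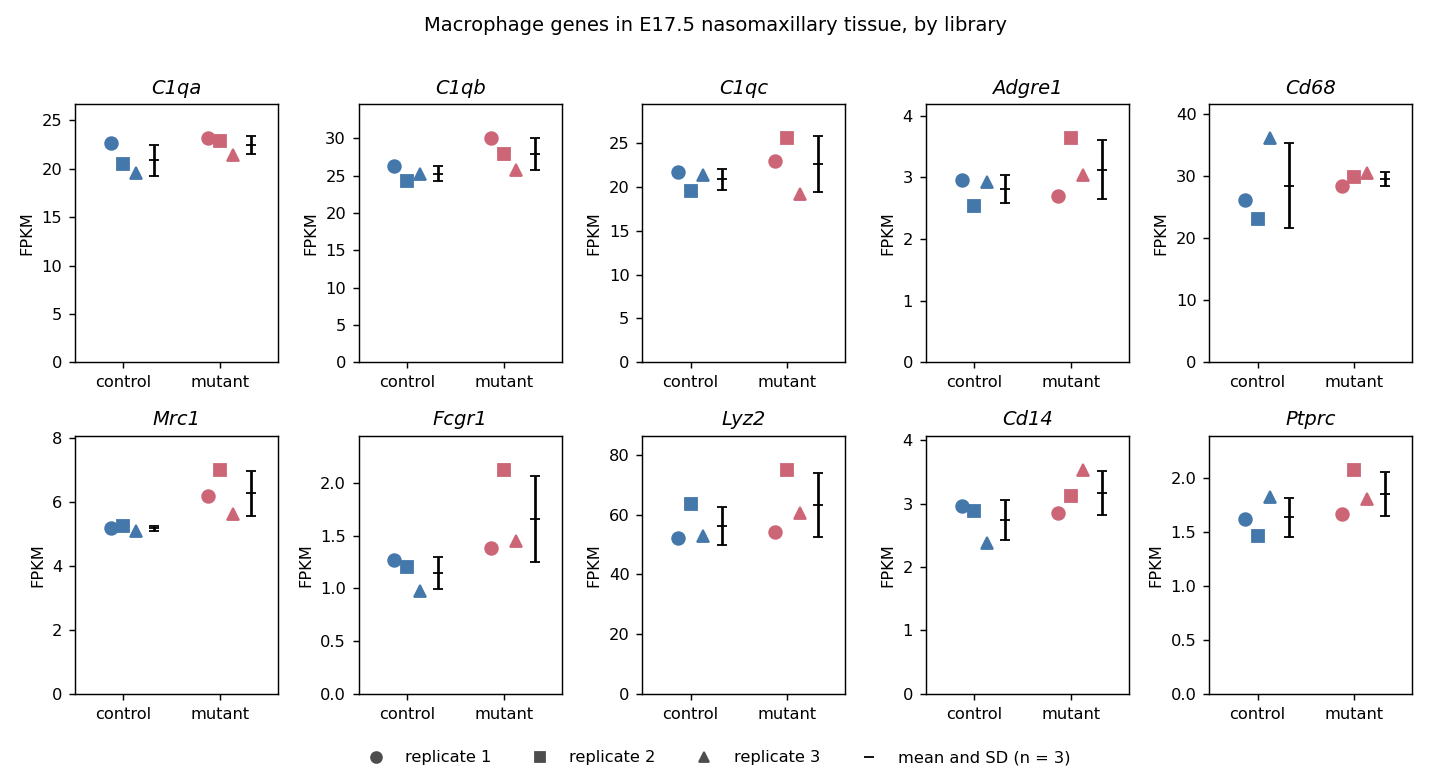
Levels of the 10 macrophage genes in FPKM (vertical axes from 0) in 3 control libraries (blue) and 3 mutant libraries (red), with the mean and SD beside each group. The groups overlap in every panel except those of Mrc1 and Fcgr1, and mutant replicate 2 (red square) is the highest library in 6 of the 10 panels.

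Among the C1q chains, C1qa (ENSMUSG00000036887.5, chromosome 4, 136895917 to 136898803) gave 22.6, 20.5 and 19.5 FPKM in control and 23.2, 22.8 and 21.4 FPKM in mutant, with replicates 1 to 3 in order here and in all series of values that follow. Its groups overlapped, since control replicate 1 lay above mutant replicate 3. C1qa had a log2 change of 0.10 ± 0.066 (SE), with a 95% interval of -0.053 to 0.26 and a limma adjusted p of 0.617. It was 0.059 without control replicate 3 and 0.16 without control replicate 1. C1qb (ENSMUSG00000036905.8, 136880129 to 136886187) measured 26.3, 24.3 and 25.2 FPKM in control and 30.0, 27.8 and 25.7 FPKM in mutant. Mutant replicates 1 and 2 were above all controls and mutant replicate 3 was below control replicate 1. Its log2 change was 0.13 ± 0.066, with an interval of -0.022 to 0.29 and an adjusted p of 0.5 (limma), and it was 0.081 without mutant replicate 1. C1qc (ENSMUSG00000036896.5, 136889804 to 136893065) measured 21.7, 19.5 and 21.3 FPKM in control and 23.0, 25.5 and 19.2 FPKM in mutant, which held both the highest and the lowest of its 6 values. Its log2 change was 0.10 ± 0.10, with an interval of -0.14 to 0.34 and an adjusted p of 0.772 (limma). The C1qc change was 0.011 without mutant replicate 2, 0.057 without control replicate 2 and 0.21 without mutant replicate 3.

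Proportions between the chains varied about as much as their levels. The ratio of C1qb to C1qa was 1.21 ± 0.0674 in control and 1.24 ± 0.0499 in mutant (SD, n = 3 each), and it ran from 1.16 to 1.30 over the 6 libraries, the highest being 1.11 times the lowest. The ratio of C1qc to C1qa had an SD of 0.0763 in control and 0.113 in mutant and ran from 0.894 to 1.12, the highest being 1.25 times the lowest. The 3 chains summed to between 64.3 and 76.2 FPKM, so that the highest library held 1.19 times the lowest. Fragment counts behind C1qa were estimated at 171 to 282 per library, and at the lowest of these, in mutant replicate 3, counting error alone gives a coefficient of variation of 7.64%. The observed coefficients were 7.57% in control, where the counts were 218 to 270, and 4.11% in mutant. The annotated neighbours of the cluster with a symbol in the files were Ephb2 and Epha8. Ephb2, an ephrin receptor gene 44141 bp away, measured 22.8 ± 0.614 FPKM in control against 21.4 ± 1.32 FPKM in mutant. Epha8, 30616 bp away on the other side, stayed under the filter at 0.950 ± 0.147 and 0.909 ± 0.0225 FPKM.

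Of the surface receptors, Mrc1 (ENSMUSG00000026712.3, chromosome 2, 14229392 to 14332057, plus strand), the mannose receptor CD206, measured 5.19, 5.25 and 5.08 FPKM in control and 6.18, 7.01 and 5.63 FPKM in mutant. The groups did not overlap, and the controls lay within a narrow band. An estimated 277 to 464 fragments lay behind each Mrc1 value. At the lowest of these, in mutant replicate 3, counting error alone gives a coefficient of variation of 6.01%. The observed coefficients were 1.68% in control, where the counts were 350 to 427, and 11.1% in mutant. For Mrc1 the log2 change was 0.23 ± 0.084 (SE), with an interval of 0.034 to 0.43, an unadjusted p of 0.0274 and an adjusted p of 0.379 (limma). Mrc1 is also made by lymphatic endothelium. The marker list of that endothelium summed to 60.4 to 62.8 FPKM in control and to 57.7, 76.3 and 58.9 FPKM in mutant. Mutant replicates 1 and 3 thus lay below every control for that list, and above every control for Mrc1. The highest value of both was in mutant replicate 2. Without that library the log2 change of Mrc1 was 0.16, and in the fit with sex as a covariate, which compares mutant replicate 1 with the 3 controls, all female, it was 0.22. The part of the other cell types and of sex in these values was not tested.

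Fcgr1 (ENSMUSG00000015947.10, chromosome 3, 96282909 to 96293969, minus strand), the high-affinity receptor for IgG, was the lowest of the 10. It measured 1.27, 1.20 and 0.975 FPKM in control and 1.39, 2.13 and 1.45 FPKM in mutant. Mutant replicate 2 was well above the rest, and mutant replicate 1 exceeded the highest control by little. The log2 change was 0.30 ± 0.14 (SE), with an interval of -0.037 to 0.63 and an adjusted p of 0.486 (limma). With a pseudocount of 0.1 in place of 1, which compresses low genes less, it was 0.47, with an interval of -0.069 to 1.02. Only an estimated 31 to 65 fragments lay behind each value, and counting error alone gives a coefficient of variation of 18% at the lower end, against an observed 13.4% in control and 24.7% in mutant. Without mutant replicate 2 the log2 change was 0.17, and in the fit with sex as a covariate it was 0.15.

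Adgre1 (ENSMUSG00000004730.15, chromosome 17, 57358691 to 57483527, plus strand) encodes F4/80, the adhesion receptor by which mouse macrophages are usually recognised. It measured 2.96, 2.54 and 2.93 FPKM in control and 2.69, 3.64 and 3.03 FPKM in mutant. Mutant replicate 1 was below 2 of the controls, so the groups overlapped. The log2 change was 0.11 ± 0.11 (SE), with an interval of -0.15 to 0.37 and an adjusted p of 0.778 (limma), and it was 0.019 without mutant replicate 2, 0.056 without control replicate 2 and 0.18 without mutant replicate 1. Ptprc (ENSMUSG00000026395.16, chromosome 1, 138062861 to 138175708, minus strand), which encodes CD45, the phosphatase on all leukocytes, measured 1.62, 1.46 and 1.82 FPKM in control and 1.67, 2.08 and 1.81 FPKM in mutant. Control replicate 3 lay above mutant replicates 1 and 3. Its log2 change was 0.11 ± 0.11, with an interval of -0.14 to 0.37 and an adjusted p of 0.76 (limma), and it was 0.058 without mutant replicate 2 and 0.066 without control replicate 2. The ratio of Ptprc to Adgre1 varied least of the ratios to Adgre1 that were computed, from 0.549 to 0.621 over the 6 libraries, with means of 0.582 ± 0.0366 in control and 0.597 ± 0.0246 in mutant (SD, n = 3 each).

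Cd14 (ENSMUSG00000051439.7, chromosome 18, 36725067 to 36726798, minus strand), the co-receptor that hands endotoxin to TLR4, measured 2.96, 2.88 and 2.38 FPKM in control and 2.85, 3.11 and 3.54 FPKM in mutant. Mutant replicate 1 lay below control replicates 1 and 2. Its log2 change of 0.16 ± 0.11 (SE) had an interval of -0.093 to 0.41 and an adjusted p of 0.641 (limma), on an estimated 46 to 65 fragments per library. It was 0.084 without control replicate 3 and 0.093 without mutant replicate 3.

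Among the lysosomal members, Lyz2 (ENSMUSG00000069516.8, chromosome 10, 117277331 to 117282321, minus strand), the lysozyme of macrophages and neutrophils, was the most abundant of the 10 in every library and measured 52.1, 63.5 and 53.0 FPKM in control and 54.3, 75.1 and 60.5 FPKM in mutant. Control replicate 2 lay above mutant replicates 1 and 3. The log2 change was 0.16 ± 0.13 (SE), with an interval of -0.14 to 0.46 and an adjusted p of 0.691 (limma), and it was 0.033 without mutant replicate 2, 0.25 without control replicate 2 and 0.26 without mutant replicate 1. Lyz2 has a near-identical neighbour, Lyz1, named after its values were seen, and reads may have been divided between them, so the level of each is uncertain. Lyz1 had means of 7.42 ± 0.785 in control and 7.45 ± 0.915 FPKM in mutant libraries (SD, n = 3 each).

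Cd68 (ENSMUSG00000018774.13, chromosome 11, 69664213 to 69666153, minus strand), a lysosomal membrane protein of macrophages and osteoclasts, measured 26.1, 23.1 and 36.1 FPKM in control and 28.3, 29.8 and 30.5 FPKM in mutant. The controls held both the highest and the lowest value, and the 3 mutants lay between them. Cd68 had a log2 change of 0.076 ± 0.15 (SE), with an interval of -0.27 to 0.42 and an adjusted p of 0.894 (limma). It was -0.055 without control replicate 2, 0.25 without control replicate 3 and 0.029 without control replicate 1. The control coefficient of variation was 23.9%, against 5.78% that counting error gives at the lowest estimated fragment count of 299. Over the controls the highest Cd68 value was 1.56 times the lowest. The 10 osteoclast markers, which include the acid phosphatase Acp5 and the collagen-degrading protease Ctsk, summed to 525, 409 and 682 FPKM in the same libraries, a ratio of 1.67, with the same library highest and the same lowest. In mutant they summed to 547, 476 and 564 FPKM. By contrast the C1q sum differed by 1.10 times over the controls. The part of osteoclasts in the Cd68 level was not tested.

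Ordered by mean over the 6 libraries, Lyz2 (59.7 FPKM) stood above Cd68 (29.0 FPKM) and C1qb (26.6 FPKM), followed by C1qc and C1qa (21.7 FPKM each), Mrc1 (5.72 FPKM), Adgre1 (2.97 FPKM), Cd14 (2.95 FPKM), Ptprc (1.75 FPKM) and Fcgr1 (1.40 FPKM). Lyz2 and Cd68 did not overlap in any library, nor did C1qa and Mrc1, Mrc1 and Adgre1, or Cd14 and Ptprc. Cd68 exceeded C1qb in 3 of 6 libraries, and Adgre1 exceeded Cd14 in 3 of 6, so neither pair had an order. Lyz2, Cd68, C1qb, Mrc1, Ptprc and Fcgr1 held the same rank in both groups.

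Library by library, mutant replicate 2 was highest for 6 of the 10 genes, mutant replicate 1 for 2 (C1qa and C1qb), mutant replicate 3 for 1 (Cd14) and control replicate 3 for 1 (Cd68). The lowest value fell in control replicate 2 for 4 genes, in control replicate 3 for 4, in control replicate 1 for 1 and in mutant replicate 3 for 1. Averaged over the 10 genes on the log2(FPKM + 1) scale and relative to the control mean, the libraries stood at 0.026, -0.034 and 0.0083 in control replicates 1 to 3 and 0.089, 0.26 and 0.093 in mutant replicates 1 to 3. Without mutant replicate 2 all 10 changes were still above 0, with a median of 0.080.

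**Figure D2:**
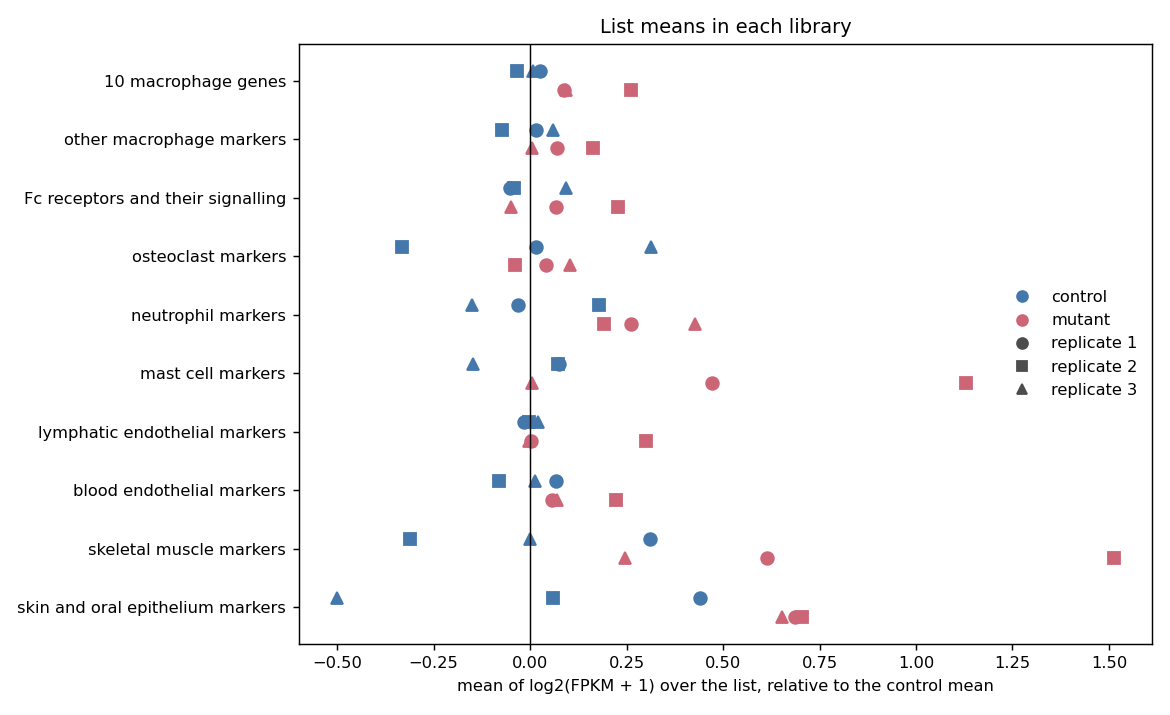
Mean of log2(FPKM + 1) over each gene list, relative to the mean of the 3 control libraries, for every control (blue) and mutant (red) library. For the 10 macrophage genes mutant replicate 2 (red square) stands at 0.26, and the same library is at 1.51 for skeletal muscle and 1.13 for mast cell markers.

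The other macrophage markers, 26 genes not among the 10, were examined in the same fit. Of the 20 that passed the filter 0 were called, 17 had changes above 0, and the median log2 change was 0.13. Only 1, Laptm5, a lysosomal membrane protein of leukocytes, was separated between groups, with 19.5 ± 2.50 FPKM in control and 22.8 ± 0.742 FPKM in mutant (SD, n = 3 each, limma adjusted p = 0.421). Stab1, a scavenger receptor of macrophages and sinusoidal endothelium, measured 15.0 ± 1.03 and 17.4 ± 1.61 FPKM. The genes given next were chosen after their values were seen. Csf1r, the receptor for the main macrophage growth factor, had control and mutant means of 20.8 ± 3.84 and 21.5 ± 0.486 FPKM, and like Cd68 it was highest in control replicate 3 and lowest in control replicate 2. Tyrobp, a signalling adaptor of myeloid receptors, measured 48.7 ± 7.79 and 51.4 ± 3.42 FPKM. Mertk, which takes up dying cells, had a log2 change of -0.028, Trem2 one of -0.0067 and the protease gene Ctss one of -0.10. The markers Vsig4, Timd4 and Marco, of macrophages in adult liver, body cavities and lymphoid tissue, were under 0.12 FPKM in every library, and Cd163 and Siglec1 under 0.75 FPKM.

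**Figure D3:**
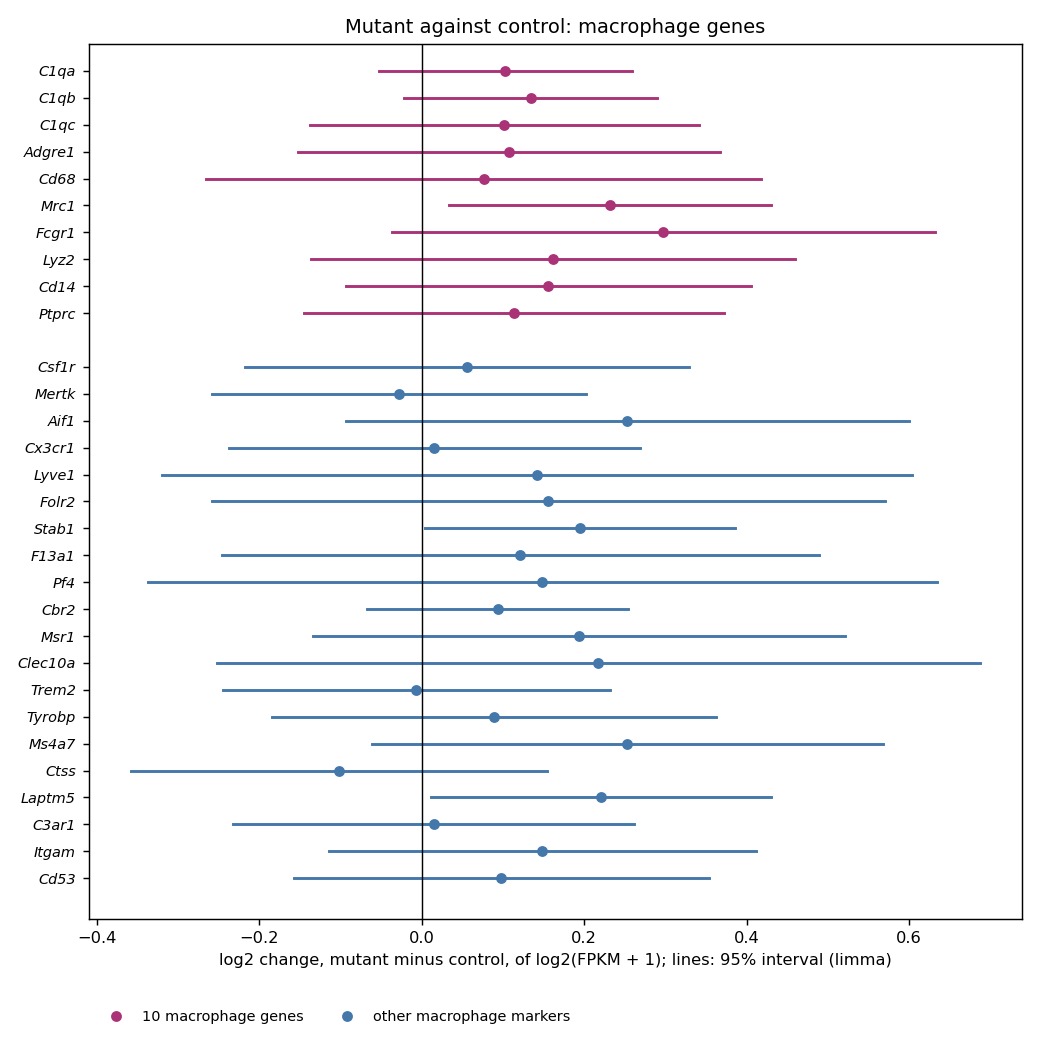
Log2 change, mutant minus control, on the log2(FPKM + 1) scale with its 95% limma interval for the 10 macrophage genes and the 20 other macrophage markers tested. Only Mrc1 among the 10, and Stab1 and Laptm5 among the others, have intervals that leave out 0, and none of the 30 genes was called after adjustment.

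Of 13 transcription factors of the macrophage lineage, 11 were tested, 0 were called and 9 had changes above 0 (median 0.12). Spi1, which encodes PU.1 and was chosen after its values were seen, measured 9.59, 6.61 and 11.2 FPKM in control and 9.32, 8.12 and 7.19 FPKM in mutant, a log2 change of -0.12 ± 0.17 (SE). Its highest and lowest values both lay in control, as for Cd68. Maf, a factor of mature resident macrophages, had means of 19.8 ± 1.09 and 22.1 ± 0.743 FPKM in control and mutant libraries, with no overlap (limma adjusted p = 0.391). Batf3, best known from dendritic cells, had the largest change of the list, from 2.52 ± 0.549 to 5.25 ± 1.21 FPKM (log2 change 0.82 ± 0.17, limma adjusted p = 0.165).

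Complement genes other than C1q did not move as a block. Of 25 genes listed 15 were tested and 0 called, 6 had changes above 0 and 9 below, and the median was -0.019. C1s1 and C1ra, chosen after their values were seen, encode the proteases that C1q activates. C1s1 had control and mutant means of 13.9 ± 0.544 and 13.7 ± 1.56 FPKM, and C1ra 7.24 ± 1.24 and 6.32 ± 1.20 FPKM. C4b, the next component they cleave, measured 4.82, 4.66 and 7.36 FPKM in control and 2.73, 2.34 and 2.80 FPKM in mutant. Its groups did not overlap, and the log2 change was -0.85 ± 0.16 (SE), with an interval of -1.22 to -0.48 and an adjusted p of 0.126 (limma). C4b shares most of its sequence with C4a, named after its values were seen, so reads may have been divided between them. C4a stayed below the filter at 0.769 ± 0.101 FPKM in control and 0.904 ± 0.110 FPKM in mutant. Cfp, properdin of the alternative pathway, measured 12.7 ± 0.623 and 14.2 ± 0.634 FPKM (limma adjusted p = 0.401). Cfd was listed at 0 in every library.

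Genes that act with Fcgr1 came next. Of 10 tested genes of Fc receptors and their signalling 0 were called and 8 had changes above 0 (median 0.084). Fcer1g, the signalling chain shared by activating Fc receptors, measured 24.2, 20.1 and 22.7 FPKM in control and 26.8, 33.4 and 26.8 FPKM in mutant. Its groups did not overlap, and the log2 change was 0.36 ± 0.10 (SE), with an adjusted p of 0.292 (limma). Fcer1g is also expressed by mast cells, and it was highest in mutant replicate 2. The part of mast cells in the Fcer1g level was not tested. Inpp5d, the lipid phosphatase SHIP1 that dampens Fc receptor signals, had means of 3.36 ± 0.354 and 4.25 ± 0.654 FPKM in control and mutant libraries, which overlapped (limma adjusted p = 0.451). Fcgr2b, the inhibitory receptor, chosen after its values were seen, had a log2 change of -0.18 ± 0.12.

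Of 9 tested partners of Cd14 in endotoxin sensing 0 were called, 4 had changes above 0, and the median was -0.043. Tlr4, the receptor, and its co-receptor Ly96, both picked with their values in view, had log2 changes of 0.088 and 0.12. Ly86, which encodes MD-1, the partner of a related receptor on B cells and myeloid cells, measured 3.23, 3.47 and 3.44 FPKM in control and 5.08, 4.27 and 4.80 FPKM in mutant. Every mutant value was above every control value, with a log2 change of 0.38 ± 0.084 (SE) and an adjusted p of 0.182 (limma). Lbp, which carries endotoxin to Cd14, measured 13.5 ± 0.738 and 12.7 ± 1.40 FPKM.

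**Figure D4:**
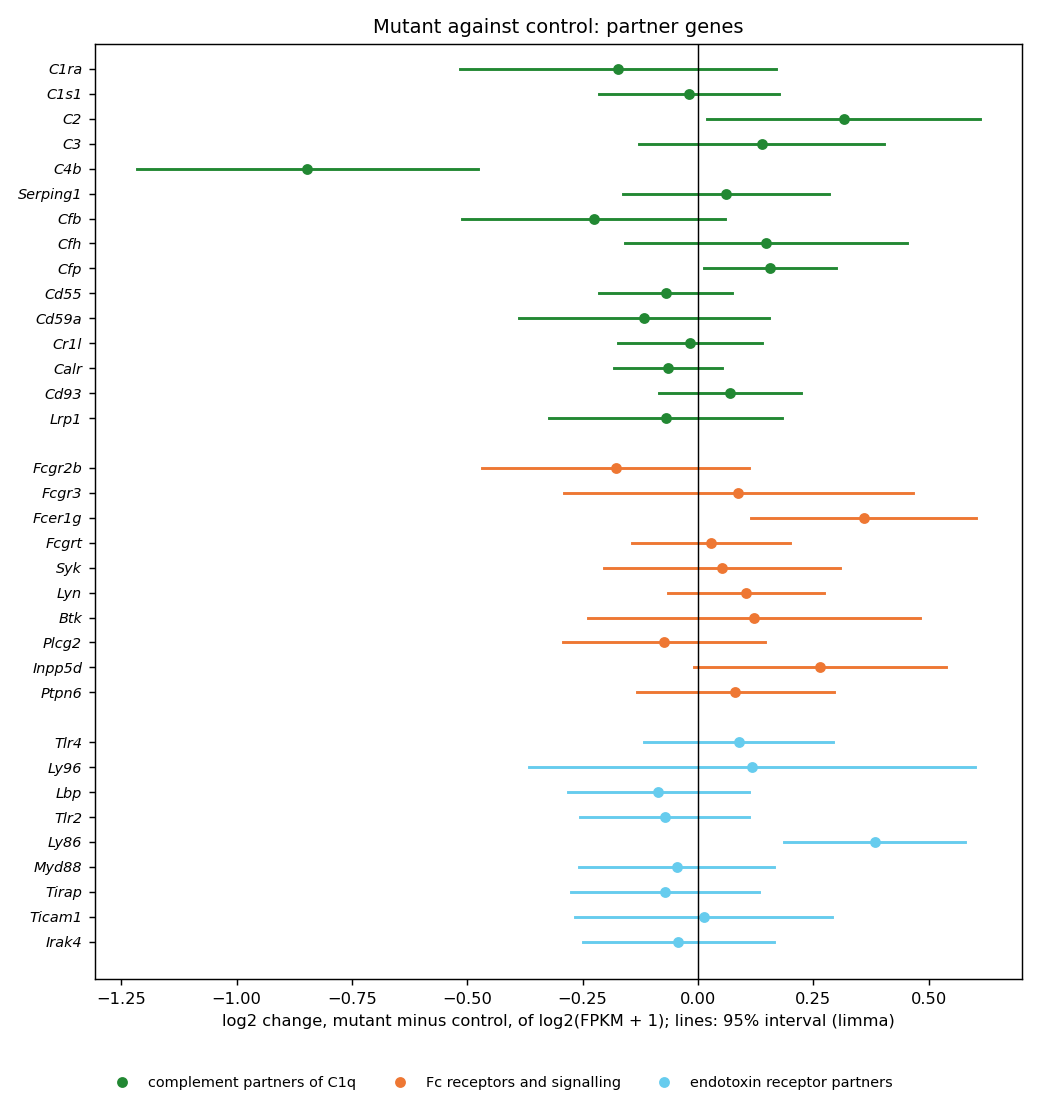
Log2 change, mutant minus control, on the log2(FPKM + 1) scale with its 95% limma interval for tested complement genes, Fc receptor genes and endotoxin receptor partners. C4b lies farthest to the left at -0.85, and Ly86 and Fcer1g farthest to the right at 0.38 and 0.36, with 0 of the 34 genes called after adjustment.

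Growth factors and chemokines of macrophages had 13 tested genes, of which 0 were called and 8 had changes above 0 (median 0.045). Cxcl12, a chemokine of stromal cells, measured 88.7 ± 4.81 and 106 ± 15.5 FPKM, and Tgfb1 29.6 ± 4.43 and 25.7 ± 0.846 FPKM. Csf1 and Il34, both ligands of the Csf1r receptor and also picked with their values in view, had log2 changes of 0.083 and 0.19. Inflammatory genes were scarce: 10 of 15 stayed under the filter, among them Il1b, Tnf, Il6 and Nos2. Of the 5 tested 0 were called and 4 had changes above 0 (median 0.32). Arg1, the arginase of alternatively activated macrophages and of some epithelia, measured 4.16, 3.50 and 4.08 FPKM in control and 11.1, 8.61 and 4.22 FPKM in mutant, where replicate 3 lay just above the controls (log2 change 0.79 ± 0.28, limma adjusted p = 0.37). Il1rn, an inhibitor of interleukin 1 signalling made by leukocytes and epithelium, went from 0.744 ± 0.220 to 1.48 ± 0.215 FPKM (limma adjusted p = 0.283). Among 17 lysosomal and phagocytosis genes 0 were called, 11 had changes above 0, and the median was 0.0071. Cd36 and Axl, receptors for lipids and dying cells, measured 7.29 ± 0.577 and 29.4 ± 2.12 FPKM in control, with 9.88 ± 2.41 and 35.1 ± 5.38 FPKM in mutant.

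Markers of other cell types were read in the same libraries. Ltf, Elane, Mpo, Kit, Ms4a2, Fcer1a, Olfml3, P2ry12, P2ry13 and Fcrls, like the inflammatory genes under the filter, were picked with their values in view. Lyz2 and Ptprc are shared with neutrophils, whose list summed to 136 to 153 FPKM in control and 171 to 180 FPKM in mutant, without overlap. S100a9 and Retnlg, the neutrophil genes of smallest p, measured 41.7 ± 5.96 and 3.48 ± 0.461 FPKM in control. In mutant they measured 56.9 ± 6.26 and 5.53 ± 0.304 FPKM (limma adjusted p = 0.265 and 0.103). Ltf, of the same list, hardly differed, with 48.9 ± 3.13 FPKM in control and 49.2 ± 5.40 FPKM in mutant (log2 change 0.0067). The granule genes Elane and Mpo stayed below 0.75 FPKM. In that list 8 of 8 tested genes had changes above 0 and 0 were called. Mast cell markers summed to 115 to 126 FPKM in control and 128 to 288 FPKM in mutant. Of 6 tested genes of that list 0 were called and 5 had changes above 0. Kit had a log2 change of -0.091, with 14.3 ± 1.49 FPKM in control and 13.3 ± 0.776 FPKM in mutant. Ms4a2 and Fcer1a stayed under 0.26 FPKM in every library. The protease gene Cma1 measured 12.9, 12.8 and 9.45 FPKM in control and 24.6, 58.0 and 11.5 FPKM in mutant, and Hdc, the histamine-forming enzyme and the highest gene of the list, 69.2 ± 0.794 and 78.8 ± 5.22 FPKM. For monocytes the list summed to 263 to 294 FPKM in control and 226 to 272 FPKM in mutant, most of it Fn1, a matrix gene of many cells. Lymphocyte and dendritic cell lists summed to between 2.94 and 4.86 FPKM in every library, with Cd8a listed at 0 throughout. In the list of brain microglia, Tmem119, which osteoblasts also make, and Olfml3 were the highest, while the highest value of P2ry12 and P2ry13 in any library was 1.02 FPKM. Sums for skin and oral epithelium were 686 to 1599 FPKM in control and 1820 to 1932 FPKM in mutant, for blood endothelium 147 to 165 and 161 to 183 FPKM, and for erythroid cells 578 to 1425 and 706 to 1194 FPKM. The epithelial genes Krt15 and Perp went from 158 ± 21.4 and 84.6 ± 15.3 FPKM in control to 219 ± 4.85 and 118 ± 4.95 FPKM in mutant. The endothelial genes Tek and Tie1 went from 6.94 ± 0.393 and 19.3 ± 1.10 FPKM to 8.35 ± 0.700 and 21.9 ± 1.21 FPKM. In both lists 0 were called. The part of these cell types in the levels of the 10 genes was not tested. With the mean of the skeletal muscle list as a covariate, 8 of the 10 changes were above 0 and their median was 0.039. Relative to the control mean, that list mean stood at 0.31, -0.31 and 0.00024 in control and 0.61, 1.51 and 0.25 in mutant. The covariate thus runs partly with genotype, and this fit cannot separate them.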

How the data were processed

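The authors deposited 1 FPKM value per gene symbol and library, per the file headers. Cuffdiff 2.2.1, TopHat2 2.1.1 and SAMtools 0.1.18 are named, with Bowtie2 2.2.8 and the mm10 build, per the submitters' processing notes. Per the labels' protocols RNA was extracted with TRIzol for a stranded mRNA kit. Not given in the sources used here are the annotation, filters, strand setting and any scaling between libraries. Values were analysed as log2(FPKM + 1), and genes whose mean was under 1 FPKM were left out. The 3 mutant libraries were compared with the 3 controls by limma 3.58.1 in R 4.3.3 (lmFit, eBayes with trend, two-sided, 4 residual degrees of freedom), with Benjamini-Hochberg adjustment over 14766 genes and a threshold of 0.05. The fit was tested on simulated data with larger changes than those of the macrophage genes, so it was not shown to find changes as small as theirs. Intervals are 95% limma intervals. No set test was run.

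Depth was estimated from ratios of values under 0.15 FPKM between libraries and from 106 genes with 1 annotated transcript, assuming fragments of 200 bases. Fragment counts behind a gene use its longest transcript and are approximate. Positions are from GENCODE M21 (GRCm38, the coordinates of mm10). Plots used matplotlib 3.10.9.

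The 10 genes and the lists were chosen with earlier results of these data known. Named genes are the 10, up to 4 called members of each list or else the 2 of smallest p, the neighbours of the C1q cluster, the 10 genes nearest C1q in profile, Pth1r, and markers listed at 0 or highest in their list. The genes of smallest p are not all given for the osteoclast, monocyte, lymphocyte, dendritic cell, lymphatic endothelial and erythroid lists. 1 gene planned for the Fc receptor list was left out of that list and its counts and is not reported here. Others are stated as chosen after their values were seen. As alternatives the pseudocount was set to 0.1 or 0.5, the filter was dropped or raised to 5 FPKM, and the libraries were scaled by quantiles, the upper quartile or median ratios. The others were eBayes without trend or robust, library weights, a covariate (sex or the muscle list), an adjusted p under 0.1, and leaving out each library.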

Additional observations from a re-analysis of the deposited data

How the results depend on the processing

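No alternative gave a called macrophage gene. Of 176 recomputed log2 changes of the 10 genes, 171 stayed above 0. With sex as a covariate Adgre1 and Lyz2 turned to -0.044 and -0.043, and with muscle markers as the covariate C1qc and Adgre1 turned to -0.12 and -0.058. Without control replicate 2 Cd68 turned to -0.055, and without control replicate 3 it was 0.25. The cause was not tested. Leaving out 1 library at a time left 9 to 10 of the 10 changes above 0. With a mean of at least 5 FPKM only 6 of the 10 genes were tested, and 6 had changes above 0. The count of genes called over the whole table, 39, became 18 with no filter, 19 without trend, 71 with library weights, 10 with sex and 4 with muscle markers as the covariate, 80 at an adjusted p under 0.1, and 17 to 44 when 1 library was left out. It was 20, 17 and 19 without control replicates 1, 2 and 3 and 24 without mutant replicate 1. The median change over all genes stayed within -0.0068 and 0.0089 under the 3 scalings and both filters. Control replicate 3 held the fewest estimated fragments of Fcgr1, 31, and of Cd14, 46. No paired analysis was possible because the labels carry no replicate numbers: those used here follow accession order and pair no samples.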

Other observations

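Likeness to the mean profile of the C1q chains over the 6 libraries was measured as the root mean square difference between centred log2(FPKM + 1) profiles, and 8442 genes averaging 10 FPKM or more were compared. The 10 nearest were Abhd5, Adgre5, Col18a1, Sorbs3, Akt2, Ltbp3, Pld2, Tmem150a, Plekhg5 and Rab7, at differences from 0.026 to 0.033. Col18a1, a basement membrane collagen, for example measured 50.2, 43.9 and 46.4 FPKM in control and 53.6, 55.4 and 46.9 FPKM in mutant. The measure separated little: the C1q profile itself departed from a flat line by a root mean square of only 0.094, and 1808 genes lay nearer to it than a flat line did. The chains themselves stood at places 20 (C1qb), 70 (C1qa) and 322 (C1qc) from their own mean, and Lyz2 and Cd68 at places 7217 and 7679. Of the 50 nearest genes 0 belonged to the lists of macrophage markers, macrophage transcription factors or Fc receptor genes, but only 17 genes of those lists were among the 8442 compared, so this count tells little. With a mean of at least 1 FPKM as the filter, 6 of the 10 nearest genes were the same.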
